A study of Mus musculus with 6 samples.

Results

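Probes for intergenic lincRNA intervals carry no gene name on this array. They are named by a stretch of the mouse genome (build mm9), and the description of each states the strand. The 2137 probes described here were those, of 4450 with such a name, that were well above background on at least 3 of the 6 arrays, by the scanner's own flag for each spot. They are 2137 of the 56599 probes used, and 2137 of the 34781 that met the same detection rule. Detection chose them, so being detected is not a finding about them, and levels and detected shares are given as descriptions with no test. The RNA was from the renal cortex of C57BL/6 males with induced diabetes. They received a diet with 60% of calories from fat from 8 weeks of age, streptozotocin at 60 mg/kg on 3 days after 4 weeks of that diet, and were killed 26 weeks after the streptozotocin. One group of 3 samples was wild type (WT) and the other group of 3 lacked the C3a receptor (C3aR-/-), the receptor for a fragment of complement C3. All 6 samples carry the diet and the toxin, and non-diabetic samples were not analysed here.

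Long intergenic non-coding RNAs (lincRNAs) are transcribed from stretches between protein-coding genes, and many are capped, spliced and polyadenylated like messenger RNA. They are known for low levels and for expression restricted to few tissues. Some act on chromatin or on nearby genes, some in the cytoplasm, and most have no assigned function. A probe of 60 bases reports RNA of 1 strand only, so a pair of probes on opposite strands of an interval can show which strand is transcribed.

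Levels are log2 signals minus the 75th percentile of the array. A level of 0 is therefore the signal that 75% of the probes of an array stay under. Brightness also depends on the sequence of a probe, so levels are not used to order transcripts. Differences are C3aR-/- minus WT, each with its limma standard error. With 3 arrays a group the precision is limited. The labels do not state whether replicates came from separate animals, and p-values therefore reflect only how these samples vary.

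C3ar1, which encodes the receptor, read -2.96, -3.86 and -3.62 in WT and -4.10, -4.95 and -4.69 in C3aR-/-. Its difference of -1.10 ± 0.30 did not pass adjustment (limma, adjusted p = 0.948), and it was -0.46 with another background correction (normexp) and -0.65 without WT replicate 1 and C3aR-/- replicate 2. The labels do not say whether its probe lies in the deleted part of the gene. Those 2 arrays score furthest apart on principal component 1, which holds 33.6% of the variance of the interval probes, and are called the outermost arrays. Cell type markers differed as well: 11 of 11 T cell markers read lower in C3aR-/- (list mean -1.45 to -0.81 in WT, -2.61 to -1.87 in C3aR-/-), and so did 11 of 12 macrophage markers, 12 of 12 markers of injured tubules and 5 of 5 B and plasma cell markers. The list means of these last lists overlapped between groups. For injured tubules they were 4.30, 3.40 and 3.59 in WT and 3.20, 2.89 and 3.49 in C3aR-/-. Macrophage lists ran from 1.51 to 2.18 in WT and from 1.08 to 1.58 in C3aR-/-. B and plasma cell lists ran from -2.593 to -2.302 and from -3.464 to -2.585. Of 12 proximal tubule markers, 12 read higher (list mean 5.57 to 6.58 in WT, 6.32 to 6.84 in C3aR-/-), as did 6 of 6 collecting duct and distal tubule markers and 4 of 6 podocyte markers, while fat markers were split 2 and 2. All podocyte and tubule markers on these lists were well above background on the 6 arrays. In RNA from whole cortex, fewer cells of a type and less RNA per cell cannot be told apart. The part these markers had in the interval differences was not tested.

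The sequences printed here are the probes on which the results turn, 5′ to 3′ as on the array, with mm9 positions from the array's annotation. The first 5 lie on the reverse strand of chromosome 1, with 11.28 kb between the first and last start, and read lower together in C3aR-/-. Capitals mark the hexamer AATAAA, a signal for polyadenylation.
chr1:175666326-175666385 reverse: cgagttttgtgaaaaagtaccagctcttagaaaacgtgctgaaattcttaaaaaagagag
chr1:175662473-175662532 reverse: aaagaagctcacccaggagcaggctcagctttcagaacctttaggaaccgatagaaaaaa
chr1:175657659-175657718 reverse: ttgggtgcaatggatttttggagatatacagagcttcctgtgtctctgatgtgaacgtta
chr1:175655106-175655165 reverse: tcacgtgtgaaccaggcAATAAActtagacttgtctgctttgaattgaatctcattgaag
chr1:175655046-175655105 reverse: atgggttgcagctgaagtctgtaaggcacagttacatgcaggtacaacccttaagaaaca

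The next 5 are the probes with the largest negative difference among those whose groups do not overlap, a negative difference beside a microRNA host gene, the smallest p-value, and a pair of positive differences on probes detected on all 6 arrays. None holds the hexamer.
chr8:93340198-93340257 reverse: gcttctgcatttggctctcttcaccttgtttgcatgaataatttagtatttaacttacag
chr16:84708738-84708797 forward: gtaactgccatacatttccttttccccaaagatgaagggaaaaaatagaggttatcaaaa
chr4:135163980-135164039 reverse: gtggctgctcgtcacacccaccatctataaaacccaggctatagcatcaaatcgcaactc
chr13:70747276-70747335 reverse: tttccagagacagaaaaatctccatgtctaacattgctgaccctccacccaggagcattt
chr15:92208387-92208446 forward: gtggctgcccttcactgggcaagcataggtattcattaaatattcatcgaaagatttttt

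The last 2 are among the 10 brightest and show runs that bright interval probes share with other probes. In the first, capitals mark 28 bases shared with a probe of Rps29, a ribosomal protein gene, and in the second 36 bases shared with a probe for another transcript.
interval chr7:108209996-108216032 reverse: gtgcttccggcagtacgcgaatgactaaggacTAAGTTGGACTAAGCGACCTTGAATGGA
chr4:33364816-33364875 reverse: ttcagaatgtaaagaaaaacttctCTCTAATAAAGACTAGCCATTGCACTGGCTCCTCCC

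Fewer interval probes than other probes were detected on each array. Between 43.5% and 50.5% of the 4450 interval probes were well above background on an array, against 59.8% to 64.0% of the 52149 others. Over 3 or more arrays the shares were 48.0% and 62.6%. Detection was mostly all or none: 1854 interval probes were detected on 0 arrays and 1766 on all 6, with 317, 142, 121, 111 and 139 on 1, 2, 3, 4 and 5. Just inside the threshold of 3 arrays, mean levels ran from -5.93 to -4.61 (median -5.08), and just outside it, on 2 arrays, from -6.57 to -4.77 (median -5.37).

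Among the 2137, mean levels ran from -5.93 to 7.12 with a median of -2.87 and quartiles of -4.13 and -1.15. Only 326 (15.3%) had a mean level above 0. Between arrays of 1 group the median SD was 0.22 in WT and 0.19 in C3aR-/-. By array, the median ran from -3.02 to -2.81 in WT and from -2.82 to -2.78 in C3aR-/-. WT replicate 1 was the lowest of the 6.

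Both strands contributed about equally. On the array 2228 interval probes are forward and 2222 reverse, and 1043 (46.8%) and 1094 (49.2%) of these were detected. For 832 intervals the array carries probes of both strands. Both strands were detected in 263 of them (31.6%), only the forward strand in 158, only the reverse strand in 209 and neither in 202, so 44.1% of the probed pairs gave signal on 1 strand alone. This counts detection at the probed places and not which strands are transcribed. With detection on all 6 arrays, 198 intervals gave both strands, and with detection on at least 1 array, 360.

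The 10 intervals with the brightest signal on both strands included several rich in G and C. On chr12:73838608-73862621 the forward probe read 5.63 to 6.09 and the reverse probe 6.44 to 6.70 over the 6 arrays. Their G and C content was 80% and 78.3%. On chr5:34696192-34722842, where probes of Rnf4, a ubiquitin ligase gene, lie inside the interval, the forward probe read 3.68 to 4.03 and the reverse probe 0.71 to 1.52. The interval chr6:54591416-54597566 lies 392 bases from a probe of Plekha8, a gene for a lipid transfer protein (difference 0.15 ± 0.12). Its forward probe differed by 0.14 ± 0.12 and its reverse probe by 0.16 ± 0.16. The other intervals were chr7:108209996-108216032, chr6:83368261-83407280, chr11:22681800-22707775, chr15:79764481-79809909, chr17:46972160-46997919, chr17:5795893-5835243 and chr14:33923944-34003394. Over all 20 probes of the 10 intervals, differences between genotypes ran from -0.18 to 0.29, and the lowest unadjusted limma p was 0.240.

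Interval probes lay on all 19 autosomes and on X. The detected share ran from 39.8% on chromosome 13 (104 of 261 probes) to 58.6% on chromosome 14 (109 of 186), with 56.6% on chromosome 17 and 43.1% on X (75 of 174). The other probes of the array ran from 55.9% (X) to 69.5% (chromosome 11). Chromosome 14 was the single chromosome where interval probes (58.6%) were detected no less often than other probes (58.3%). Most detected probes were on chromosome 1 (161) and fewest on chromosome 19 (50).

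By the array's own annotation, some intervals held a probe of a known gene, of any kind. In 461 of the 2137 (21.6%), a probe that carries a gene symbol known to RefSeq lay inside the interval, on the same strand in 277 and on the opposite strand alone in 184. The same-strand gene was a named lncRNA gene in 149 of the 277 and protein-coding in 112. An opposite-strand gene probe lay inside for 220, with or without a same-strand one, and was lncRNA in 121 and protein-coding in 90. A lncRNA gene inside an interval does not go against the name intergenic as defined above. Another 463 had a same-strand gene probe outside the interval but within 10 kb, and that gene was protein-coding in 383. A same-strand gene probe lay inside or within 10 kb for 1350 of all 4450 interval probes, inside for 473 and within 100 kb for 3530. The array gives no exon structure for these stretches, so whether a probe lies in an unannotated exon of its neighbour was not tested.

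The detected share varied more with the distance to a gene of the same strand than to one of the opposite strand. Interval probes were detected in 58.6% of cases with a same-strand gene probe inside the interval, 52.8% with one over 0 to 10 kb away, 46.7% over 10 to 100 kb and 41.3% beyond. For opposite-strand gene probes the shares were 48.1%, 47.4%, 48.7% and 46.9%. Where the same-strand gene probe inside was itself detected, 66.7% of interval probes were (202 of 303), and where it was not, 44.1% (75 of 170). Within 10 kb outside, interval probes lying 3′ of the gene probe were detected in 54.4% of cases and those lying 5′ of it in 49.0%.

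Across bins of base composition the detected share had a wider range than across chromosomes, strands or distances. Of interval probes with under 40% G and C, 42.5% were detected, and of those with at least 60%, 74.7% (165 of 221). Between these, the shares were 45.7%, 43.6%, 55.3% and 58.3% in steps of 5 points. Among the other probes the same bins gave 59.6% and 73.1%. Mean G and C content was 46.4% in the 2137 and 44.0% in the undetected interval probes. Wider intervals were detected more often too, with 38.4% in the narrowest of 5 equal bins and 53.6% in the widest. The intervals of the 2137 had a median width of 11.25 kb, from 67 bases to 534 kb. The part of base composition in these shares was not tested.

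The hexamer AATAAA was read in the sense of the probe and on the opposite strand, in the 60 bases of each probe. In the sense of the probe it was present in 103 of the 2137 (4.82%), in 3.24% of undetected interval probes and in 10.3% of probes without an interval name (9.77% of all probes). As its complement it was present in 2.71%, 2.81% and 3.94%. The variant ATTAAA was present in the sense of the probe in 2.39%, 2.72% and 3.97%. These hexamers may overlap each other within a probe, and a match is a description of letters only.

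Some interval probes lay in promoters. Probe sequences were searched whole in RefSeq promoters (GRCm38.p6, 250 bases before to 50 after the gene start). Of 28 found in the orientation opposite to the gene, 16 were detected (57.1%), and of 27 found in the gene's own orientation, 11 (40.7%). Opposite to the promoter of Snhg17, a host gene of small nucleolar RNAs, the forward probe of chr2:158169020-158191295 differed by 0.13 ± 0.27. Opposite to Wdr89, the forward probe of chr12:76744947-76778372 was detected on 1 C3aR-/- array and 3 WT arrays and differed by -0.57 ± 0.22. That probe also matches the promoter of Gm34717 in its own orientation.

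Shared sequence was searched only among the probes of the array. Matches to parts of transcripts that no probe covers were not tested, so these counts cannot show how many members cross-match. The array gives a genome position for 2108 of the 2137. Of the 2137, 43 shared a run of at least 25 bases with a probe of another name outside the interval set, 16 in the same orientation and 27 as its complement. Among the first were probes sharing bases with Tusc3, Hook3, Pvt1, Mthfs, Ifitm3 and Rps29. Within the interval set, 66 shared such a run with another interval probe in the same orientation and 171 as a complement. Several intervals overlap, so members are not independent.

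The 10 brightest interval probes read between 6.07 and 7.32 on every array and differed little between genotypes. The brightest, on the reverse strand of chr11:22681800-22707775, read 7.12, 7.07 and 7.17 in WT and 7.11, 7.20 and 7.06 in C3aR-/-. The groups overlapped, and the difference was 0.00071 ± 0.10. The reverse probe of chr7:108209996-108216032, printed above with the run it shares with Rps29, read 7.03, 6.97 and 7.14 in WT and 7.06, 7.09 and 6.99 in C3aR-/-. The array gives it no position in the genome. The Rps29 probe itself differed by 0.06 ± 0.10.

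Other probes among the 10 brightest were chr17:17481706-17482457 reverse, chr14:78924115-78938125 forward, chr17:48068261-48087905 forward, chr12:73838608-73862621 reverse, chr4:33364774-33364898 reverse, chr2:168804720-168854970 reverse and chrX:138967807-138968413 reverse. Of the 10, 3 had at least 60% G and C, and 0 had a same-strand gene probe inside or within 10 kb. Differences ran from 0.00071 to 0.19, and the lowest unadjusted limma p was 0.232.

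The comparison of the genotypes asks, from the title of the series, what loss of the receptor does in the diabetic kidney. No interval probe passed adjustment over the 34781 probes tested (limma with Benjamini-Hochberg adjustment, lowest adjusted p = 0.948), and 0% of all tested probes did. At an unadjusted p under 0.05 there were 115 of 2137 interval probes, 5.38% against 4.68% of all probes. Of these, 89 read higher in C3aR-/- (4.16% against 2.16% of all probes) and 26 lower (1.22% against 2.52%). With at least 2-fold as well there were 6 (0.281% against 0.552%). The groups did not overlap in 237 (11.1% against 9.57%), 190 of them higher (8.89% against 5.55%) and 47 lower (2.20% against 4.02%).

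The 1766 interval probes on all 6 arrays did not depend on detection in a single group. Of these, 79 had an unadjusted p under 0.05 (4.47% against 4.07% of all probes on 6 arrays), 66 higher (3.74% against 1.86%) and 13 lower (0.736% against 2.21%). The 371 detected on 3 to 5 arrays gave 36 (9.70% against 10.9% of all probes on 3 to 5 arrays), with 23 higher (6.20% against 5.24%) and 13 lower (3.50% against 5.69%).

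The interval probes as a set stood slightly higher in C3aR-/-. Their median difference was 0.07, against 0.03 for all probes, and 1394 of 2137 (65.2%) were above 0, against 56.1%. The 5th and 95th percentiles of the differences were -0.34 and 0.46, against -0.45 and 0.37 for the other tested probes. On all 20 chromosomes the median was above 0, from 0.04 on chromosome 11 to 0.09 on chromosome 2. The chromosomes were read on the same 6 arrays, so they are not independent repeats of the shift. The share above 0 ran from 57.4% to 71.3% over chromosomes. Forward and reverse probes had medians of 0.06 and 0.08. The 1075 interval probes with no gene probe inside or within 10 kb on either strand had a median of 0.07, with 65.6% above 0. With normexp correction the median of all interval probes was 0.0355, against 0.0106 for all probes, and 62.2% were above 0, against 53.5%. The probes compared were not matched on level, and the part of level in the shift was not tested.

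The shift varied with the arrays used. Without WT replicate 1, the array with the lowest median level, the median was 0.03 and the share above 0 was 58.2%, against 0.02 and 56.1% for all tested probes in the same refit. At an unadjusted p under 0.05, 83 interval probes then read higher (3.88% against 2.37%) and 56 lower (2.62% against 2.55%). Without the 2 outermost arrays the share was 54.7% against 54.3%, with 150 higher (7.02% against 4.67%) and 112 lower (5.24% against 4.10%). Within row 1 of the slide, 2 arrays against 2, the median was 0.04, and within row 2, which holds WT replicate 1 and C3aR-/- replicate 3, it was 0.14. For all tested probes the medians within rows were 0.03 and 0.01.

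The 20 interval probes named for their difference were the 10 most negative and 10 most positive with an unadjusted limma p under 0.05 and groups that do not overlap. They were chosen on that contrast, so their differences describe and support nothing. They lay on both strands, 13 reverse and 7 forward, and 11 had a gene probe within 10 kb. Of the 20, 8 were well above background on all 6 arrays, 4 in each direction.

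The most negative difference of all 2137 was not among them, since its groups overlapped. On the forward strand, the probe of chrX:47890565-47915775 read -1.01, -1.05 and -0.98 in WT and -1.03, -0.82 and -5.99 in C3aR-/-. The difference of -1.60 ± 1.32 came from C3aR-/- replicate 3 alone.

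The largest negative difference of the named set was on the reverse strand of chr8:93337794-93348869. This probe read -1.19, -0.77 and -0.28 in WT and -2.15, -2.58 and -1.63 in C3aR-/-. All 3 C3aR-/- arrays lay below all 3 WT arrays. The means were -0.75 ± 0.45 and -2.12 ± 0.47 (SD, n = 3 each), a difference of -1.37 ± 0.31 or 2.58-fold (limma, adjusted p = 0.948). Within slide row 1 it was -1.83, and within row 2, with 1 array a group, -0.45. No gene probe lay within 10 kb, and the forward probe of the same interval was not well above background on any array.

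The forward probe of chr16:84708695-84708806, an interval of 112 bases, lies 6627 bases 5′ of a probe of Mir155hg. That gene is the host of miR-155, a microRNA induced in activated immune cells. The interval probe read -3.58, -3.87 and -3.42 in WT and -4.27, -4.72 and -4.41 in C3aR-/-, a difference of -0.84 ± 0.17. The SD was 0.23 in each group (n = 3), near the median of interval probes. The Mir155hg probe was not well above background on any array, so its own difference was not tested here. On the opposite strand, Mrpl39, a mitochondrial ribosomal protein gene, lies 9741 bases away and differed by 0.05 ± 0.10, and a reverse interval probe over the same stretch differed by -0.24 ± 0.17.

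On chr7:140016236-140016772 the reverse probe read -4.17, -4.62 and -4.51 in WT and -4.92, -5.83 and -5.45 in C3aR-/-. The difference was -0.97 ± 0.25, and 1 of the 3 C3aR-/- arrays was well above background. The nearest gene probe, 2520 bases away on the same strand, was Eef1akmt2, a lysine methyltransferase gene, which differed by 0.03 ± 0.12. On chrX:6950444-6952293 the reverse probe read -4.55, -4.26 and -2.99 in WT and -5.06, -5.01 and -5.22 in C3aR-/-. Its difference of -1.16 ± 0.39 was -0.69 without WT replicate 3, the highest array. Here too, 1 of the 3 C3aR-/- arrays was well above background. Gm14379, a lncRNA gene 2730 bases away on the opposite strand, differed by -0.27 ± 0.15.

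The other 5 of the most negative outside chromosome 1 ranged from -0.80 to -0.68. These were chr4:145539725-145596000 reverse (-0.80 ± 0.24), chr2:128217275-128217972 reverse (-0.77 ± 0.27), chr14:65205076-65219432 reverse (-0.77 ± 0.29), chr12:112220578-112220962 forward (-0.77 ± 0.29) and chr8:70623390-70645212 reverse (-0.68 ± 0.17). Only the chromosome 4 probe was well above background on all 6 arrays. The chromosome 14 probe was on 2 WT and 2 C3aR-/- arrays, and the chromosome 2, 12 and 8 probes were on 2 WT arrays and 1 C3aR-/- array each. Beside the chromosome 12 interval, 5835 bases away on the opposite strand, a probe of Ankrd9 differed by 0.29 ± 0.11. The chromosome 14 interval holds an opposite-strand probe of Mir124a-1hg, the host of a microRNA of neurons, that was not well above background on any array. On C3aR-/- replicate 2 the chromosome 2, 14 and 12 probes read -6.04, -6.06 and -6.28, under the lowest signal well above background on that array (-5.68). Without C3aR-/- replicate 2, these probes differed by -0.51, -0.44 and -0.44.

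On chromosome 1, 5 reverse-strand interval probes under overlapping interval names read lower together in C3aR-/-. They lie near Ifi204, an interferon-inducible gene of the Ifi200 family of DNA sensors, whose probe is 5674 bases from the interval chr1:175660642-175671878 on the same strand. The most 5′ of them, the member named by the rule, read -1.73, -2.44 and -2.24 in WT and -3.01, -3.08 and -2.66 in C3aR-/-, a difference of -0.78 ± 0.22. The groups did not overlap. The second probe of that name read 1.04, 0.60 and 0.78 in WT and 0.02, 0.17 and 0.70 in C3aR-/-, a difference of -0.51 ± 0.21, with C3aR-/- replicate 3 inside the WT range.

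Under the overlapping name chr1:175654606-175672031 there were 3 more. The first of these, at chr1:175657659-175657718, read 0.51, -0.40 and -0.16 in WT and -0.42, -1.17 and -0.35 in C3aR-/- (-0.63 ± 0.31), with overlap. The probe with the hexamer read 1.31, 0.72 and 0.86 in WT and 0.71, -0.12 and 0.51 in C3aR-/- (-0.60 ± 0.26), and the one next to it 1.85, 0.79 and 1.01 in WT and 0.68, 0.03 and 0.79 in C3aR-/- (-0.72 ± 0.32). In both of the last pair the groups did not overlap, though their nearest arrays almost met.

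The Ifi204 probe read 1.71, 0.41 and 0.57 in WT and 0.21, -0.41 and 0.51 in C3aR-/-, a difference of -0.79 ± 0.39 (limma, unadjusted p = 0.0865). Without WT replicate 1 the Ifi204 difference was -0.39, and without the 2 outermost arrays -0.13. No array was well above background for the forward probe of that stretch, so signal was detected on 1 strand only. Only 2 of the 5 had an unadjusted p under 0.05, and these 5 were put together after their values were seen. The differences of the 5 ran from -0.58 to -0.36 without WT replicate 1, from -0.70 to -0.35 without C3aR-/- replicate 2, and from -0.49 to -0.10 without both. T cell and macrophage markers also read lower in C3aR-/-, and their part in this was not tested.

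The most positive differences were on dim probes. The smallest unadjusted p of the set (0.00024) belonged to the reverse probe of chr4:135138014-135174889, which read -5.88, -5.60 and -6.02 in WT and -4.89, -4.53 and -4.67 in C3aR-/-. It passed the background flag on 3 C3aR-/- arrays and on 0 WT arrays. Its measured difference was 1.14 ± 0.16 (limma, adjusted p = 0.948). With WT signals raised to the lowest signal well above background on their array, the C3aR-/- signal was 1.80-fold higher. The forward probe of the same interval, well above background on all 6 arrays, differed by 0.13 ± 0.14. A forward probe of the overlapping interval chr4:135136959-135139933 differed by 0.46 ± 0.15.

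In all, 5 members were well above background on the 3 arrays of 1 group and none of the other, all 5 in C3aR-/-. The same count over all tested probes is not given here, so this number and its direction are not a trait of interval probes. Since the detection rule admits a probe seen in 1 group only, such members had to differ. Besides the chromosome 4 probe they were chr3:93150619-93184368 reverse (1.11 ± 0.32, 2.0-fold higher with the same floor), chr9:78367773-78374723 forward (1.05 ± 0.27, 1.96-fold), chr2:75447542-75448025 reverse (0.70 ± 0.25, 1.52-fold) and chr2:174787150-174866550 reverse (0.54 ± 0.18, 1.45-fold). In these folds the dim group is taken, on each array, at its own signal or at the lowest signal well above background, whichever is higher. All WT signals of the last probe lay above that floor, so its fold is the measured one. The folds leave out the standard errors and are not lower limits. Bases of the last probe are the complement of 51 bases in a probe of Zfp931, a zinc finger gene, which differed by 0.34 ± 0.15.

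Of the positive set, probes on chromosomes 13 and 15 were well above background on all 6 arrays. The reverse probe of chr13:70745633-70776516 read -1.26, -1.26 and -1.62 in WT and -0.37, -0.89 and -0.49 in C3aR-/-, with no overlap. Its difference was 0.80 ± 0.18. The probe of Ice1, a gene of the complex that transcribes small nuclear RNAs, lies 4373 bases away on the same strand and differed by 0.19 ± 0.18. On chr15:92197603-92208534 the forward probe read -2.96, -3.13 and -3.15 in WT and -2.11, -2.69 and -2.24 in C3aR-/-, a difference of 0.73 ± 0.17. No gene probe lay within 10 kb of it.

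The forward probe of chr17:13008796-13023201 lies 659 bases from a probe of Airn, the imprinted antisense RNA of the Igf2r locus. It read -4.49, -4.65 and -4.49 in WT and -3.74, -3.51 and -4.29 in C3aR-/-, a difference of 0.70 ± 0.21. That Airn probe differed by 0.15 ± 0.14. A second probe of the same name went the other way, at -1.14 ± 0.68, with -4.58, -2.13 and -2.0 in WT and -4.24, -3.68 and -4.22 in C3aR-/-.

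The remaining members of the positive set were chr16:9249688-9275013 forward (1.02 ± 0.41, and 0.54 without C3aR-/- replicate 3), chr1:55298349-55308374 reverse (0.84 ± 0.19), chr4:126710640-126721240 reverse (0.84 ± 0.31, and 0.53 without WT replicate 3) and chr18:38477934-38478445 forward (0.71 ± 0.22). Of these, only the chromosome 1 probe was well above background on all 6 arrays. The chromosome 4 probe was on 1 WT array and 3 C3aR-/- arrays. The array gives it no position in the genome, so its neighbours rest on the name of its interval. No gene probe lay within 10 kb of the chromosome 16 interval, and the nearest ones beside the other intervals follow. Mars2, a mitochondrial methionyl-tRNA synthetase gene, differed by 0.01 ± 0.15, Zmym1 by 0.05 ± 0.11 and Sfpq, a splicing factor gene inside the chromosome 4 interval on the opposite strand, by 0.03 ± 0.12. Rnf14, a ubiquitin ligase gene 545 bases from the chromosome 18 interval, differed by 0.05 ± 0.11. Gnpda1, 8792 bases from that interval on the opposite strand, differed by 0.21 ± 0.19.

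The size of most of these differences depended on the background step. With normexp correction, whose offset of 50 shrinks the folds of dim probes by construction, 18 of the 20 shrank by more than 1.5 times, to between -0.51 and -0.11 and between 0.17 and 0.45. The chromosome 8 probe of chr8:93337794-93348869 and the chromosome 13 probe did not. With array weights, 5 shrank by as much, among them chr3:93150619-93184368 to 0.71, and 5 did without the 2 outermost arrays, 4 of them also under array weights.

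Other probes of the same stretches gave a mixed picture. For 9 of the 20 there was another tested same-strand probe on an overlapping interval, 16 in all, and 12 of these had the same sign. Only 2 of those 12 had an unadjusted p under 0.05. One was the chromosome 1 probe above, and the other a reverse probe of chr3:93162669-93163114 (0.23 ± 0.09). Over the whole set, 125 names held 2 or 3 members on 1 strand. In 78 of these all members differed in 1 direction, in 12 a single member had an unadjusted p under 0.05, and in 1, the chromosome 1 name, 2 members did. As 65.2% of interval probes were above 0, some unrelated members also share a sign. The share expected from this was not worked out.

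Correlations of differences were computed within and across strands. Across 125 pairs of members of 1 interval and strand, the differences correlated at r = 0.25 (Spearman's rho = 0.31). Across 263 pairs of a forward and a reverse member of 1 interval they correlated at r = 0.04 (rho = 0.05). All pairs share the same 6 arrays, and overlapping probes share sequence, so these are descriptions across sites.

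Genes next to the intervals were compared in the same way. For 587 members with a tested same-strand gene probe inside or within 10 kb, the difference of the member and that of the gene correlated at r = 0.26 (rho = 0.25), and 370 (63.0%) had the same sign. For 428 with an opposite-strand gene probe it was r = 0.06 (rho = 0.07), with 56.3% of the same sign. Beyond 10 kb and up to 100 kb the same-strand r was 0.08 (n = 763), and beyond 100 kb 0.05 (n = 236). Several members share a gene probe, 444 gene probes in 587 same-strand pairs, and with 1 member per gene probe the r of differences was 0.21. Without the 5 members beside Ifi204 it was 0.19. The differences between strands and between distances were not tested.

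Long non-coding RNA genes with names of their own gave a reference for the unnamed intervals. Of a list of 73, 62 were on the array and 48 were tested, of which 31 read higher and 17 lower in C3aR-/-, with a median of 0.09. Over all tested probes 56.1% read higher, with a median of 0.03. At an unadjusted p under 0.05, 6 of the 48 were higher (2.16% of all probes) and 1 lower (2.52% of all probes), and 0 passed adjustment (limma). Mir22hg, the host of miR-22, read 1.51, 1.46 and 1.38 in WT and 1.87, 1.86 and 1.71 in C3aR-/-, a difference of 0.36 ± 0.11 with no overlap. Mir142hg, the host of the blood-cell microRNA miR-142, read -0.27, -0.54 and 0.33 in WT and -0.78, -1.65 and -0.80 in C3aR-/-. Its difference of -0.92 ± 0.31 had the direction of the leukocyte markers.

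Snhg14 (0.43 ± 0.13) and Snhg20 (0.34 ± 0.11), hosts of small nucleolar RNAs, Bvht (0.42 ± 0.14), a lncRNA known from heart development, Jpx (0.37 ± 0.14) and Ftx (0.81 ± 0.42), which lie beside Xist in the X-inactivation centre, and Firre (0.33 ± 0.13), an X-linked nuclear lncRNA, made up the 8 of smallest p. Ftx did not reach an unadjusted p of 0.05, and its difference was 0.32 without C3aR-/- replicate 3. Of these 8 genes, 7 read higher in C3aR-/-, and Mir142hg was the exception. Over all tested probes 56.1% read higher. The 8 were chosen by the p of this contrast, so their directions lend no support to the shift of the interval probes.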

How the data were processed

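RNA of 6 renal cortex samples, 0.2 µg each, was labelled with Cy3 and hybridised to 1-colour Agilent arrays, per the labels' protocols. Images were read with Agilent Feature Extraction 10.7.1.1, per the submitters' processing notes. Per the file headers, each array holds 62976 spots, positions are on mm9, and all 6 arrays share 1 slide and 1 scan. The deposited intensity is the scanner's processed signal, background-subtracted and not normalized between arrays per the file headers. The authors' deposited table holds log2 values that share 1 distribution over the 6 columns (largest difference between sorted columns 0.000865). The tool that made it is not named in the labels, and it served as an alternative.

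After removal of control spots, repeat spots of a probe were averaged, and 6 probes with outlier flags were dropped. Saturation flags were present on 0 probes. Levels were log2 of the processed signal minus the array's 75th percentile. Probes well above background on 3 or more arrays entered a linear model in limma 3.58.1 under R 4.3.3 (eBayes), comparing C3aR-/- with WT from the sample titles, with Benjamini-Hochberg adjustment over 34781 probes. The fit was tested on simulated data. Gene probes were 43165 probes with coordinates and a symbol in the RefSeq table of GRCm38.p6, which was used for names, kinds of gene and promoter sequences only. Of the probes used, 33896 were named through an accession and 22703 kept the name in the files.

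Members named in the text were the 10 most negative and 10 most positive (adjusted threshold first, then unadjusted p under 0.05 with groups that do not overlap), the 10 brightest, those detected in 1 group only, and 10 intervals with both strands on all arrays, each with its nearest gene probe within 10 kb. For a list of named lncRNA genes, the probe with the highest mean was used and the 8 of smallest p were named. Members and lists were chosen with earlier results of these data known. Alternatives were other normalizations, background corrections, filters, variance settings and blocks, the authors' table and leaving out arrays. Sequences and counts were handled in Python 3.11.15. Of the 10 brightest, 1 probe is not reported here by name.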

Additional observations from a re-analysis of the deposited data

How the results depend on the processing

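No setting of 18 brought an interval probe past the adjusted threshold. The lowest adjusted p over settings ran from 0.177, without the 2 outermost arrays, to 1, without a filter. The count of 115 at an unadjusted p under 0.05 (89 higher, 26 lower) was 70 with normexp correction (51 higher), 67 with trend and robust variances (50 higher, 17 lower), 297 with array weights (214 higher, 83 lower) and 262 without the 2 outermost arrays (150 higher, 112 lower). Over all tested probes the count of 1628 became 1485, 1433, 3658 and 3048 in these settings. The shares higher were 2.39%, 2.34%, 10% and 7.02% of interval probes, against 1.65%, 1.62%, 6.06% and 4.67% of all tested probes. The shares lower were 0.889%, 0.796%, 3.88% and 5.24%, against 2.62%, 2.5%, 4.46% and 4.1%. The number lower was 48 without a filter (1.08% against 1.73% of all probes). Leaving out single arrays gave 82 to 147 probes, 61 to 123 higher and 19 to 56 lower, with 56 lower without WT replicate 1 and 43 without WT replicate 2. In the last 2 fits the shares lower were 2.62% and 2.01%, against 2.55% and 3.53% of all tested probes. Over all tested probes, leaving out single arrays gave 1104 to 2149. The 6 probes that were also 2-fold became 1 with normexp correction, 1 with the filter on all 6 arrays, 36 without a filter, 16 with array weights, 21 without the 2 outermost arrays and 7 to 14 without single arrays (14 and 13 with WT replicate 1 or 2 left out, 11 and 12 with C3aR-/- replicate 2 or 3 left out). The 2-fold counts over all tested probes in these settings are not given here, so these changes are not a trait of interval probes. The share above 0 was 54.7% without the 2 outermost arrays. The median of 0.07 ran from 0.03 to 0.10 over single arrays left out, the share above 0 from 58.2% to 68.7%, and the C3ar1 difference from -1.34 to -0.84. The cause of these shifts was not tested.

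By a looser scanner flag, positive and significant signal on 3 or more arrays, 3248 interval probes counted as detected. The number with a same-strand gene probe was 473 inside the interval and 3530 within 100 kb. Correlations of deviations between samples of 1 replicate number were 0.12, 0.37 and -0.08 for numbers 1, 2 and 3. Between samples of unlike numbers they ran from -0.34 to 0.31. With 3 samples a group, these values cannot settle whether replicate numbers pair the samples. With the replicate block the number lower was 42 (1.97% against 3.71% of all tested probes).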
